A study of Mus musculus with 7 samples.

Results

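The 10 genes described here mark blood vessel endothelium or serve the adhesion of leukocytes to it: Pecam1, Cdh5, Kdr, Tek, Emcn, Eng, Selp, Icam1, Vcam1 and Madcam1. They are 10 of 16593 genes named in the platform annotation and were taken by symbol, which gave 11 of the 25695 probes on the array, 2 for Pecam1 and 1 for each of the others. Whole thymus RNA was measured in 3 RelB-/- mice, which lack functional RelB, and in 4 RelB+/- mice, which keep 1 intact copy of the gene and are called wild type in the sample titles. All 7 mice were 8 weeks old, each had its own Illumina array on 1 chip, and the sources used here give neither strain nor sex. The RelB+/- mice are therefore not RelB-sufficient in the strict sense, and loss of RelB in the RelB-/- mice is not limited to the endothelium. In whole-tissue RNA, fewer endothelial cells and less RNA per endothelial cell cannot be told apart.

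Endothelial cells are held together by junction proteins such as VE-cadherin, respond to growth factors through receptors such as VEGFR2 and TIE2, and capture leukocytes with selectins and with ligands of integrins. In the thymus these vessels admit blood-borne T cell progenitors and release mature T cells. RelB is a subunit of NF-kB acting mainly downstream of the lymphotoxin beta receptor and related receptors, and Icam1, Vcam1, Selp and Madcam1 are known as genes that inflammatory or lymphotoxin signals can raise in endothelium. How far these transcripts differ in a thymus without RelB is the question the comparison addresses for them.

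No endothelial or vascular adhesion gene passed the test between the genotypes. Of the 11 probes, 10 were kept for testing (detection p under 0.05 on at least 3 arrays), which left out the only probe of Madcam1. With limma, 0 of the 10 kept probes reached an adjusted p under 0.05, and 0 had an unadjusted p under 0.05. Among all 12465 kept probes, 0.546% were called, with 0.481% lower and 0.0642% higher in RelB-/- thymus, and 11.9% had an unadjusted p under 0.05. Adjusted p-values of the 10 kept probes ran from 0.434 to 0.992, with 5 positive and 5 negative differences. Of the 9 kept probes detected in both genotypes, 6 had a 95% interval of the difference within a 2-fold change in both directions, while Tek, Emcn and Eng had wider intervals. Cdh5 and Selp, among the 6, lay near the detection limit, where background shrinks a fold. Their intervals therefore do not bound the change in transcript.

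Median raw intensity was 105.2 to 142.3 on RelB-/- arrays and 103.5 to 136.1 on RelB+/- arrays, and 45.9% to 47.8% of probes on RelB-/- arrays and 46.7% to 49.4% on RelB+/- arrays were detected. Relb itself was above background in 0 of 3 RelB-/- mice, against 4 of 4 RelB+/- mice, which makes it at least 4.58-fold lower (adjusted p = 0.000229 by limma). The sources used here do not say which exons the mutation removes, so the place of this probe relative to them is unknown. The T cell gene Cd3e was detected in 3 of 3 RelB-/- mice and 4 of 4 RelB+/- mice. Of 10 heart muscle genes, 10 were detected on RelB-/- 3 and 8 on RelB+/- 2, against 1 on each of RelB-/- 1 and RelB-/- 2 and 1 or 2 on the remaining RelB+/- arrays. RelB-/- 3 and RelB+/- 2 are called below the arrays with heart muscle transcripts, although no array was without a detected heart muscle gene. For those of the 10 genes whose result rests on RelB-/- 3 or RelB+/- 2, values with and without these arrays are given below, as for several lists. All levels are normalized log2 intensities, differences are RelB-/- minus RelB+/-, and a level of 1 probe cannot be set against that of another.

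Pecam1 encodes CD31, an immunoglobulin-family protein of endothelial junctions that platelets and several leukocytes also carry. Its brighter probe (ILMN_2700982) read 9.07, 8.97 and 8.62 in RelB-/- mice 1 to 3, against 9.05, 8.86, 8.98 and 8.96 in RelB+/- mice 1 to 4. The groups overlapped, and the RelB-/- mean was 8.89 ± 0.24 (SD, n = 3) against a RelB+/- mean of 8.96 ± 0.076 (SD, n = 4), a log2 difference of -0.08 (SE 0.15, 95% interval -0.43 to 0.27, limma adjusted p = 0.864). The other probe (ILMN_3147074), annotated to another RefSeq transcript of the gene, read 8.50, 8.40 and 8.14 on RelB-/- arrays and 8.00, 8.04, 7.71 and 8.20 on RelB+/- arrays. By this probe RelB-/- 3 lay below RelB+/- 4, so the groups overlapped, and the log2 difference was 0.36 (SE 0.17, 95% interval -0.02 to 0.74, limma adjusted p = 0.441).

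The 2 Pecam1 probes therefore differed in the sign of their estimates. Within each array, the second probe minus the first was -0.57, -0.57 and -0.48 on RelB-/- arrays and -1.05, -0.83, -1.27 and -0.77 on RelB+/- arrays. These within-array differences did not overlap between the genotypes, and the genotype difference was 0.44 on the log2 scale (SE 0.17, limma unadjusted p = 0.028). The exact permutation test over 35 splits gave a 2-sided p of 0.057, since another split of the arrays gave a difference at least as large in size. In the same comparison over 2159 genes with at least 2 kept probes, an analysis added after the values were seen, limma called 0 genes (0%), 189 genes (8.75%) had an unadjusted p under 0.05 and 9.45% had groups that did not overlap. Pecam1 ranked 99 by p among them and did not pass the adjusted test (limma adjusted p = 0.532).

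Cdh5 encodes VE-cadherin, the adhesion protein of endothelial adherens junctions. It was dim, detected in 2 of 3 RelB-/- mice and 3 of 4 RelB+/- mice. Levels were 4.61, 5.16 and 5.46 on RelB-/- arrays and 5.15, 5.19, 4.88 and 4.70 on RelB+/- arrays. The lowest and the highest of all 7 values were both from RelB-/- mice, and the log2 difference was 0.10 (SE 0.23, 95% interval -0.42 to 0.61, limma adjusted p = 0.894).

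Kdr encodes VEGFR2, the main signalling receptor for VEGF-A. It was detected in 0 of 3 RelB-/- mice and 3 of 4 RelB+/- mice, and so passed the detection filter only through RelB+/- mice. Levels were 4.27, 4.72 and 4.53 on RelB-/- arrays and 5.05, 4.48, 5.07 and 5.02 on RelB+/- arrays. The RelB+/- 2 array, where the probe was not above background either, lay among the RelB-/- values. Means as measured came to 4.51 ± 0.23 for RelB-/- mice (SD, n = 3) and 4.91 ± 0.28 for RelB+/- mice (SD, n = 4) (limma adjusted p = 0.462). The log2 difference as measured was -0.40 (SE 0.20). Without RelB+/- 2 it was -0.56 (SE 0.17, limma adjusted p = 0.345, unadjusted p = 0.013). Without both RelB-/- 3 and RelB+/- 2 it was -0.56 (SE 0.21, limma adjusted p = 0.398, unadjusted p = 0.031). Because the RelB+/- mean was below 4.94, the mean of the lowest detected signals of the 3 RelB-/- arrays, no fold is given. The differences as measured do not size a change in transcript.

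Tek encodes TIE2, the receptor of the angiopoietins, and was detected in 2 of 3 RelB-/- mice and 3 of 4 RelB+/- mice. Its levels spread widely among RelB-/- mice, at 4.27, 5.17 and 6.83, against 4.81, 5.88, 5.57 and 5.52 on RelB+/- arrays. RelB-/- 1 was the lowest and RelB-/- 3 the highest of the 7 arrays, and the means of 5.42 ± 1.30 in RelB-/- mice (SD, n = 3) and 5.45 ± 0.45 in RelB+/- mice (SD, n = 4) gave a log2 difference of -0.02 (SE 0.54, limma adjusted p = 0.992), with a 95% interval of 0.421-fold to 2.30-fold. Without RelB-/- 3 the difference was -0.72 (SE 0.34, adjusted p = 0.416).

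Emcn encodes endomucin, a sialomucin of capillary and venous endothelium, and was detected on every array. Levels were 5.65, 5.80 and 8.30 on RelB-/- arrays and 5.79, 6.92, 5.45 and 5.72 on RelB+/- arrays. The highest array of each genotype was the one with heart muscle transcripts, and the remaining 5 arrays lay between 5.45 and 5.80. The log2 difference was 0.61 (SE 0.64, 95% interval -0.84 to 2.06, limma adjusted p = 0.719). It turned to -0.24 without RelB-/- 3 (SE 0.38, adjusted p = 0.811) and was 0.08 without both arrays with heart muscle transcripts (SE 0.20, adjusted p = 0.890).

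Eng encodes endoglin, a co-receptor for ligands of the TGF-beta family, and was detected on every array. Levels were 6.05, 6.59 and 6.58 on RelB-/- arrays and 5.53, 5.59, 6.35 and 6.39 on RelB+/- arrays. RelB+/- 3 and RelB+/- 4 lay above RelB-/- 1, and the log2 difference was 0.44 (SE 0.27, 95% interval -0.18 to 1.06, limma adjusted p = 0.542). The interval allows anything between 0.885-fold and 2.08-fold of the RelB+/- level.

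**Figure D1:**
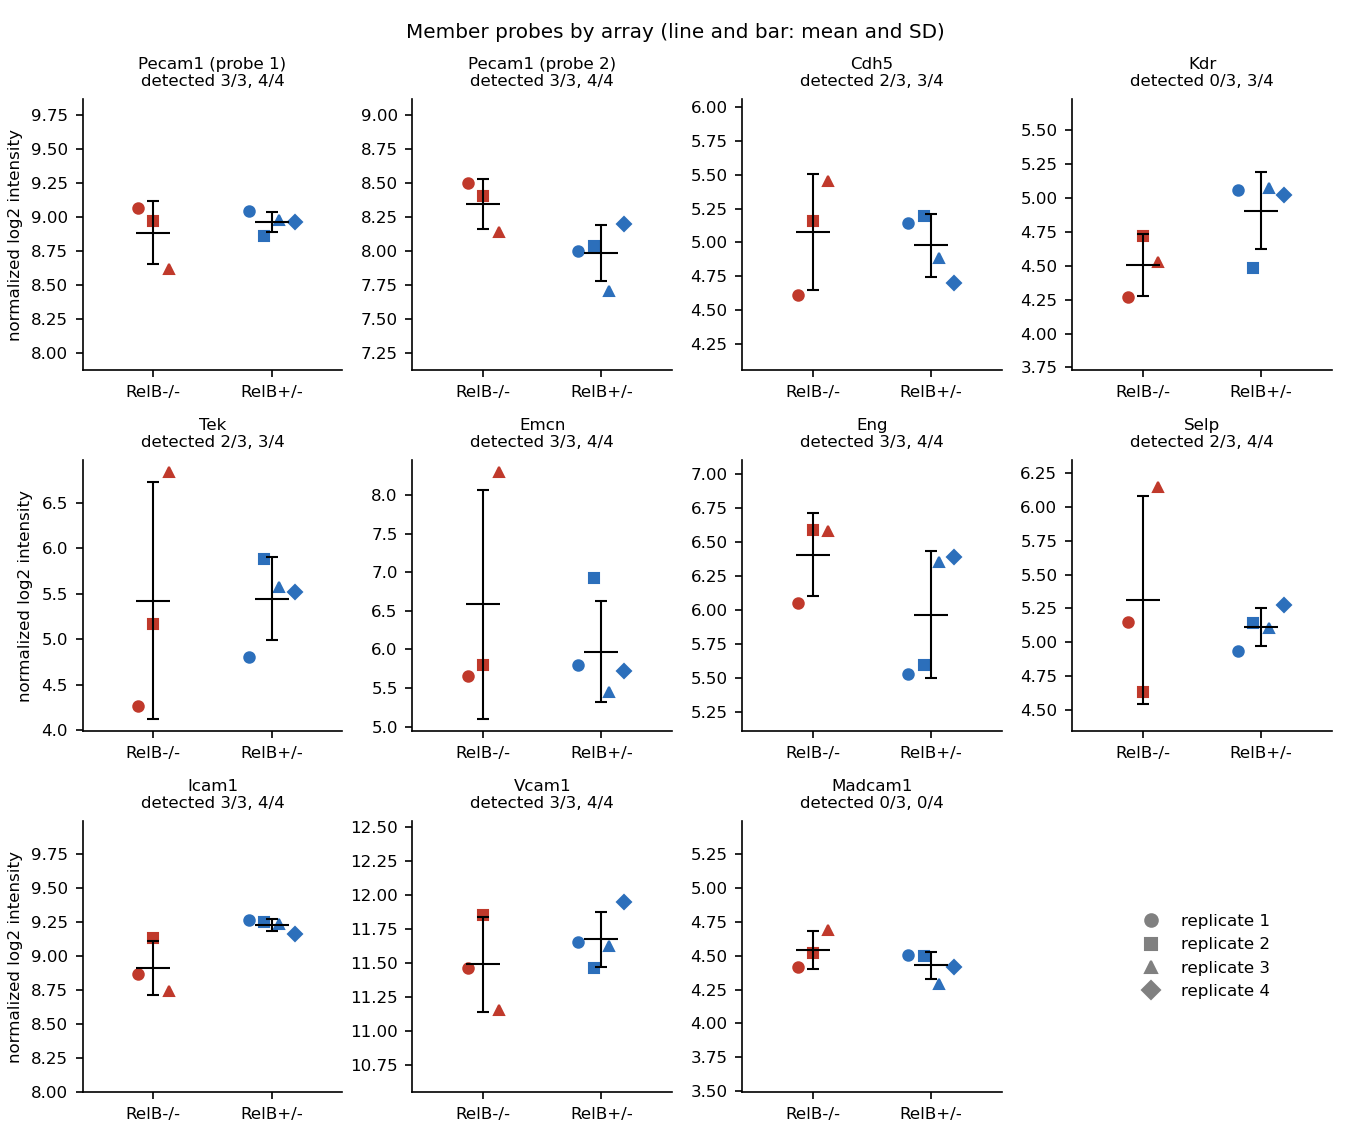
Normalized log2 intensity (vertical axis) of the 11 probes on each array, with RelB-/- mice in red at the left and RelB+/- mice in blue at the right of every panel. Symbols give the replicate, the black line and bar the mean and SD, and panel titles the number of arrays with a detection p under 0.05. Icam1 is the only kept probe whose groups do not overlap, and RelB-/- 3 is highest for Cdh5, Tek, Emcn and Selp.

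Icam1 encodes ICAM-1, the endothelial and leukocyte ligand of the integrin LFA-1. It had the smallest adjusted p of the kept probes. Levels were 8.87, 9.13 and 8.74 on RelB-/- arrays and 9.27, 9.25, 9.24 and 9.17 on RelB+/- arrays. Every RelB-/- value was below every RelB+/- value, with means of 8.91 ± 0.20 in RelB-/- mice (SD, n = 3) and 9.23 ± 0.045 in RelB+/- mice (SD, n = 4). The log2 difference of -0.32 (SE 0.14, 95% interval -0.65 to 0.01) did not pass the test (limma adjusted p = 0.434, unadjusted p = 0.056). It was the 1 of 10 kept probes whose groups did not overlap, and 12.7% of all kept probes had groups that did not overlap. The interval allows 0.639-fold to 1.01-fold of the RelB+/- level. Icam1 was detected on every array and is made by thymic stroma and leukocytes as well as endothelium.

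Vcam1 encodes VCAM-1, the ligand of the integrin VLA-4, carried by activated endothelium and by stromal cells and macrophages. It was detected on every array, at 11.46, 11.86 and 11.16 on RelB-/- arrays and at 11.66, 11.46, 11.63 and 11.95 on RelB+/- arrays. RelB-/- 2 lay above 3 of the 4 RelB+/- arrays. The log2 difference was -0.18 (SE 0.20, 95% interval -0.64 to 0.27, limma adjusted p = 0.733), or 0.641-fold to 1.21-fold of the RelB+/- level. It was -0.014 without RelB-/- 3 (adjusted p = 0.985) and -0.37 without RelB-/- 2 (adjusted p = 0.650).

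Selp encodes P-selectin, which endothelium and platelets store and which tethers leukocytes through PSGL-1. It was dim and was detected in 2 of 3 RelB-/- mice and 4 of 4 RelB+/- mice. Levels were 5.15, 4.63 and 6.15 on RelB-/- arrays and 4.94, 5.14, 5.11 and 5.28 on RelB+/- arrays. RelB-/- 2 was the lowest and RelB-/- 3 the highest of the 7 arrays. The log2 difference was 0.20 (SE 0.32, 95% interval -0.52 to 0.92, limma adjusted p = 0.828) and turned to -0.22 without RelB-/- 3 (SE 0.20, adjusted p = 0.659). The platelet and megakaryocyte list, whose cells also carry P-selectin, had 0 of 4 kept genes called and 0 with an unadjusted p under 0.05. Its mean level relative to RelB+/- mice lay between -0.46 and 0.33 on RelB-/- arrays and between -0.30 and 0.39 on RelB+/- arrays, and its part in the values of Selp was not tested.

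Madcam1 encodes MAdCAM-1, the ligand of the integrin alpha4-beta7, known from vessels of the gut and its lymphoid tissue. It was not above background on any array, with raw intensities of 94.7, 124.0 and 138.4 in RelB-/- mice and 110.9, 96.3, 97.7 and 120.8 in RelB+/- mice. Each value was below the median raw intensity of its own array. No fold is given, since neither genotype had a measured level.

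**Figure D2:**
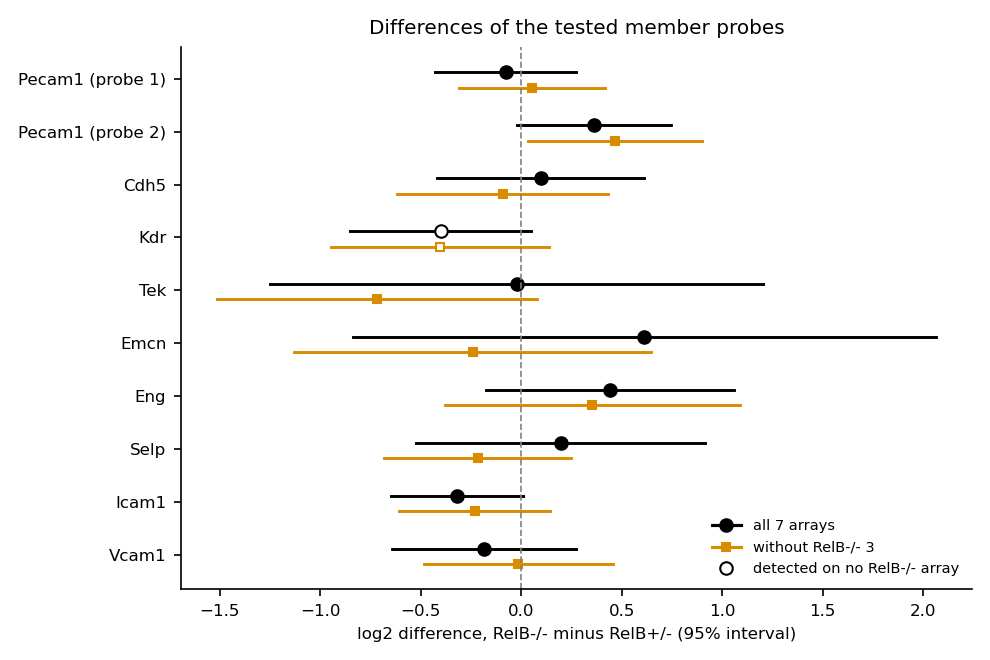
Log2 difference, RelB-/- minus RelB+/-, with its 95% interval from limma (horizontal axis) for the 10 kept probes, over all 7 arrays (black) and without RelB-/- 3 (orange). Open symbols mark Kdr, detected on no RelB-/- array. Every interval over all 7 arrays includes 0, and the estimates of the brighter Pecam1 probe, Cdh5, Emcn and Selp lie on opposite sides of 0 with and without RelB-/- 3.

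Promoters of 7 of the 10 genes were in the RefSeq promoter table (GRCm38.p6, 250 bases before to 50 bases after the annotated start). They were searched on both strands for the NF-kB consensus and for GGAAATTCC, a core described in the ICAM1 promoter in human. Kdr and Madcam1, 2 of the 7, held the NF-kB consensus, which 4.51% of 32851 mouse promoters of this length hold. Icam1, 1 of the 7, held GGAAATTCC, found in 0.317% of these promoters. Because the motif comes from the human counterpart of Icam1, that share does not measure how unusual this match is. Icam1 and Kdr are shown because they had the smallest adjusted p among genes with a promoter in the table, and Madcam1, chosen after its sequence was seen, because it held 2 matches on the reverse strand while its transcript was not detected. Capitals mark the matches, which are descriptions of the letters and not binding sites.
Icam1, chr9:21015690-21015989, plus strand: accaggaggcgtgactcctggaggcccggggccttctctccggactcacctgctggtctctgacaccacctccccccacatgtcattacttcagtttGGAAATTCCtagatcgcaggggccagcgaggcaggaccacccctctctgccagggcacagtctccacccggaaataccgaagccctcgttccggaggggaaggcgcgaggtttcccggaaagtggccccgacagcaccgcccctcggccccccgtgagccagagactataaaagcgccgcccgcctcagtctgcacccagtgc
Kdr, chr5:75978406-75978705, minus strand: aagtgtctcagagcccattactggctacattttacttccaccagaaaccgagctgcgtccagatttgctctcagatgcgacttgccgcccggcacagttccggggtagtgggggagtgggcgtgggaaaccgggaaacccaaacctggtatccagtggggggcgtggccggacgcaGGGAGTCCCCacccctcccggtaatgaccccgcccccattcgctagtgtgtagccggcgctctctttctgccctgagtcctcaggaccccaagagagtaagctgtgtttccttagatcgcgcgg
Madcam1, chr10:79664309-79664608, plus strand: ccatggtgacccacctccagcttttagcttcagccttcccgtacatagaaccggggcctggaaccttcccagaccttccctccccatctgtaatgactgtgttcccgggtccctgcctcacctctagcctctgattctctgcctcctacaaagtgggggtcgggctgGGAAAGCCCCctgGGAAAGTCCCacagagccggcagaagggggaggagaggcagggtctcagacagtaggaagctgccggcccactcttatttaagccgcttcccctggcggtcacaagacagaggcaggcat
Counted from the annotated start, the match lay at bases -153 to -145 in Icam1, at -74 to -65 in Kdr and at -83 to -74 and -70 to -61 in Madcam1. These 3 genes did not share a result: Icam1 was bright and not called, Kdr was at the detection limit, and Madcam1 was not detected. The RelB-/- values of Icam1 lay below its RelB+/- values, and 12.7% of all kept probes had groups that did not overlap. Tek, Emcn, Eng and Selp held neither motif in this window.

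The 6 genes of endothelial identity were followed together across the arrays. Their mean level relative to RelB+/- mice was -0.39, 0.03 and 0.68 in RelB-/- mice 1 to 3, against -0.14, 0.12, 0.01 and 0.01 in RelB+/- mice 1 to 4. RelB-/- mice thus held both the lowest and the highest of the 7 values. RelB-/- 3 was the highest array for 3 of these 6 genes, namely Cdh5, Tek and Emcn, while the brighter Pecam1 probe was lowest there. After each gene was scaled to an SD of 1 over the 7 arrays, the root mean square distance to the mean profile of the 6 genes was 0.51 for Tek, 0.69 for Cdh5, 0.85 for Emcn, 0.91 for Eng, 1.05 for Kdr and 1.73 for Pecam1. Pecam1, by its brighter probe, lay farthest from the mean profile, to which each of the 6 contributes. Of 4416 other genes, the 5 nearest to that mean profile were Nolc1 (0.31), Atg9b (0.33), Btbd17 (0.36), Zfp521 (0.37) and Ndufb9 (0.37). The median distance of the 4416 was 1.31. With the nearest picked from so many genes over 7 arrays, close matches can arise by selection alone.

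Further endothelial genes were mostly highest on RelB-/- 3, as Emcn and Tek were. Of 22 further genes on the array, 15 were kept, and limma called 0 of them, with 0 at an unadjusted p under 0.05. Their log2 differences had a median of 0.28, against 0.03 over all 9569 genes, and 11 of 15 were positive. The 2 with the smallest p were Icam2, an adhesion protein of endothelium and leukocytes (0.28, SE 0.14, adjusted p = 0.475), and Mmrn2, a protein of the endothelial matrix (0.56, SE 0.33, adjusted p = 0.531). RelB-/- 3 was the highest array for 11 of the 15 genes, while it was the highest for 11.6% of all genes. The list's mean level relative to RelB+/- mice was 1.24 on RelB-/- 3, against -0.33 and -0.20 on RelB-/- arrays 1 and 2, and on RelB+/- arrays it lay between -0.29 and 0.35, highest on RelB+/- 2.

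Single genes of that list, chosen after their values were seen, illustrate the spread. Vwf, the von Willebrand factor of endothelium and platelets, read 6.33, 5.24 and 8.98 on RelB-/- arrays and 5.94, 7.02, 5.60 and 5.88 on RelB+/- arrays. Gpihbp1, the capillary anchor of lipoprotein lipase, read 5.95, 6.10 and 8.67 on RelB-/- arrays and 6.10, 6.97, 5.17 and 6.66 on RelB+/- arrays. Both were highest on RelB-/- 3 and, among RelB+/- mice, on RelB+/- 2, as Emcn was. Without RelB-/- 3 the median of the 15 genes was -0.32 with 6 positive, and without both arrays with heart muscle transcripts it was -0.02 with 7 positive, settings in which limma again called 0.

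**Figure D3:**
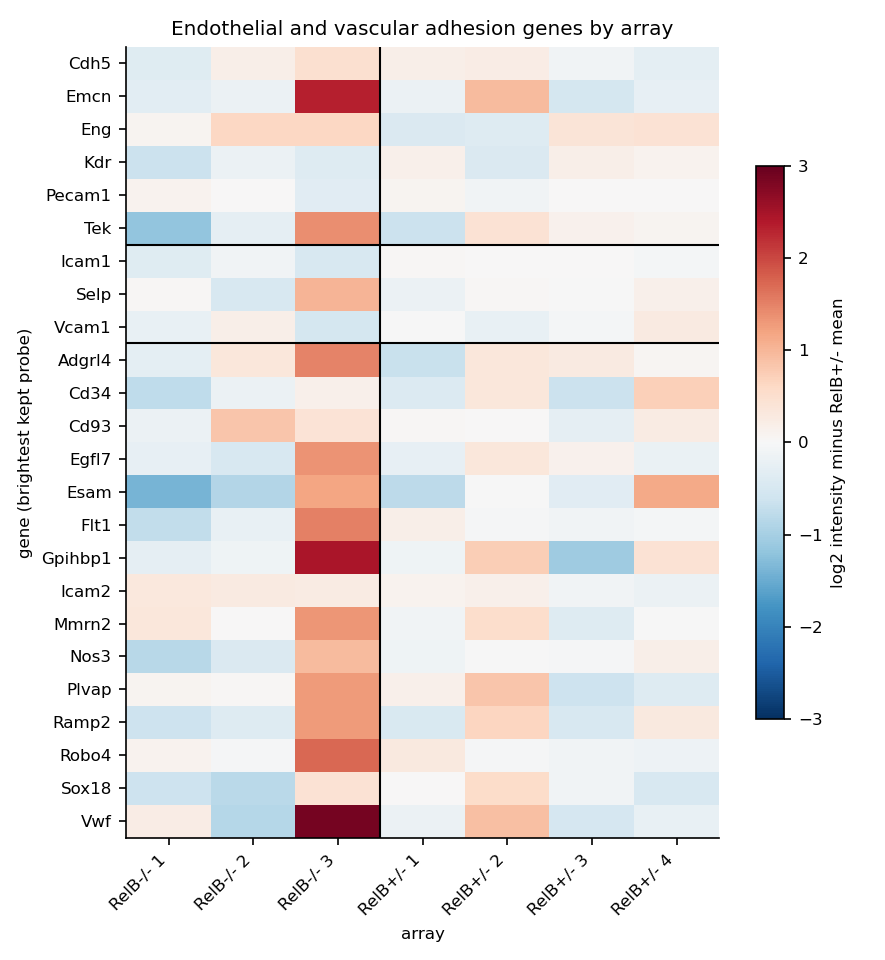
Log2 intensity minus the RelB+/- mean (colour, from -3 to 3) of the brightest kept probe of each gene (rows) on each array (columns, RelB-/- left of the vertical line). Rows run from the genes of endothelial identity through the adhesion genes to the 15 further endothelial genes, divided by horizontal lines. RelB-/- 3 is the array with most of the strong red cells, with Emcn, Vwf and Gpihbp1 the most intense.

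Mean levels of heart muscle and fat markers were the highest of their genotype on RelB-/- 3 and RelB+/- 2. The mean level of the 2 kept heart muscle genes, Myl4 and Nppa, relative to RelB+/- mice was 5.60 in RelB-/- 3 and -1.28 to -1.19 on the other RelB-/- arrays, and it was 3.80 on RelB+/- 2 and -1.48 to -0.98 on the other RelB+/- arrays. The defining gene Nppa was above background in 1 of 3 RelB-/- and 2 of 4 RelB+/- mice. The mean of 6 kept adipocyte genes was -2.14, -1.51 and 0.57 in RelB-/- mice 1 to 3 and lay between -0.81 and 0.52 on RelB+/- arrays. The mean of the fat markers was thus highest on RelB-/- 3, with RelB+/- 2 close to it at 0.52. By single genes RelB-/- 3 was the highest array for 2 of the 6. Limma called 0 of these 6 genes (1 lower at an unadjusted p under 0.05). Their median log2 difference was -1.06 over all arrays, -1.96 without RelB-/- 3 and -1.84 without both RelB-/- 3 and RelB+/- 2. Among the 5 fibroblast genes 0 were called and 0 had an unadjusted p under 0.05, with a mean of -0.98 to 0.43 on RelB-/- arrays and -0.65 to 1.15 on RelB+/- arrays. This mean was highest on RelB-/- 3 among RelB-/- arrays, but on RelB+/- 4 among RelB+/- arrays, with -0.39 on RelB+/- 2. Apart from the values without the arrays with heart muscle transcripts, the part of heart, fat or matrix tissue in the endothelial values was not tested.

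Mural cells of vessels were measured by 11 kept genes of pericytes and smooth muscle, of which limma called 0 (1 higher and 1 lower at an unadjusted p under 0.05), with a median log2 difference of 0.09 that was -0.15 without RelB-/- 3. Higd1b, known as a pericyte marker, was above background in 3 of 3 RelB-/- and 1 of 4 RelB+/- mice. It averaged 5.56 ± 0.29 in RelB-/- mice (SD, n = 3) and 4.74 ± 0.14 in RelB+/- mice (SD, n = 4), a log2 difference of 0.82 (SE 0.17) that did not pass the test (limma adjusted p = 0.127). Its groups did not overlap, but its RelB+/- mean lay below the lowest detected signal of every array, so the size of this difference is not well measured. Myh11, the smooth muscle myosin, had a log2 difference of -0.55 (SE 0.21, adjusted p = 0.366). Of the lymphatic genes, 2 of 5 were kept and 0 were called, with Reln, an extracellular glycoprotein, at -0.56 (SE 0.20, adjusted p = 0.350) and Pdpn at -0.49 (SE 0.46, adjusted p = 0.684), and only Reln had an unadjusted p under 0.05.

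Ligands and partners of the 10 genes did not pass the test either. Among ligands of endothelial receptors 0 of 6 kept genes were called and 0 had an unadjusted p under 0.05. The smallest p there belonged to Tgfb1 (log2 difference -0.46, SE 0.28, adjusted p = 0.541) and Vegfb, a VEGF family ligand (-0.34, SE 0.23, adjusted p = 0.569). Of leukocyte partners, 3 were kept and 0 called, with 0 at an unadjusted p under 0.05. Itgb7, the beta chain of the receptor for MAdCAM-1, had a difference of 0.33 (SE 0.21, adjusted p = 0.559), and Itgb1, the beta chain of VLA-4, of 0.19 (SE 0.17, adjusted p = 0.675). Further vascular and junctional adhesion genes had 0 of 6 called and 0 at an unadjusted p under 0.05, with Mcam, an endothelial and mural adhesion protein, at 0.33 (SE 0.26, adjusted p = 0.628) and Alcam, a ligand of CD6, at -0.40 (SE 0.34, adjusted p = 0.656).

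Genes of the lymphotoxin receptor pathway, taken with Tnf and its receptor and including ligands, had 0 of 7 kept members called and 0 at an unadjusted p under 0.05. Map3k14, the NF-kB inducing kinase, had a log2 difference of 0.24 (SE 0.17, adjusted p = 0.604) and Tnfrsf1a, a TNF receptor, of 0.48 (SE 0.43, adjusted p = 0.666). For scale, the medullary epithelial list had 4 of 8 kept genes called lower in the same fit, against 0.481% of all kept probes. Its mean level was -1.62 to -1.18 on RelB-/- arrays and -0.21 to 0.14 on RelB+/- arrays. Fezf2 and Aire, regulators of that epithelium and among the called genes, were above background in 0 of 3 RelB-/- and 4 of 4 RelB+/- mice. Both thus passed the detection filter only through RelB+/- mice. Without both arrays with heart muscle transcripts 2 of the 8 were called, namely Fezf2 and Aire. The median log2 difference of the list was then -1.52, against -1.51 over all arrays. Dendritic cell and macrophage genes had 1 of 7 called, the actin-bundling gene Fscn1 (-1.83, SE 0.26, adjusted p = 0.024), with a mean level of -0.29 to -0.17 on RelB-/- arrays and -0.37 to 0.32 on RelB+/- arrays. Without RelB-/- 3 Fscn1 had a log2 difference of -1.75 (SE 0.31) but was no longer called (adjusted p = 0.083), leaving 0 of 7. These cell types also carry Icam1 and Vcam1, and their part in the values of both genes was not tested. B cell and lymph node stroma genes had 0 of 2 called and 1 lower at an unadjusted p under 0.05, red cell genes 0 of 3 and 0, and thymocyte genes 0 of 7 and 1 higher.

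**Figure D4:**
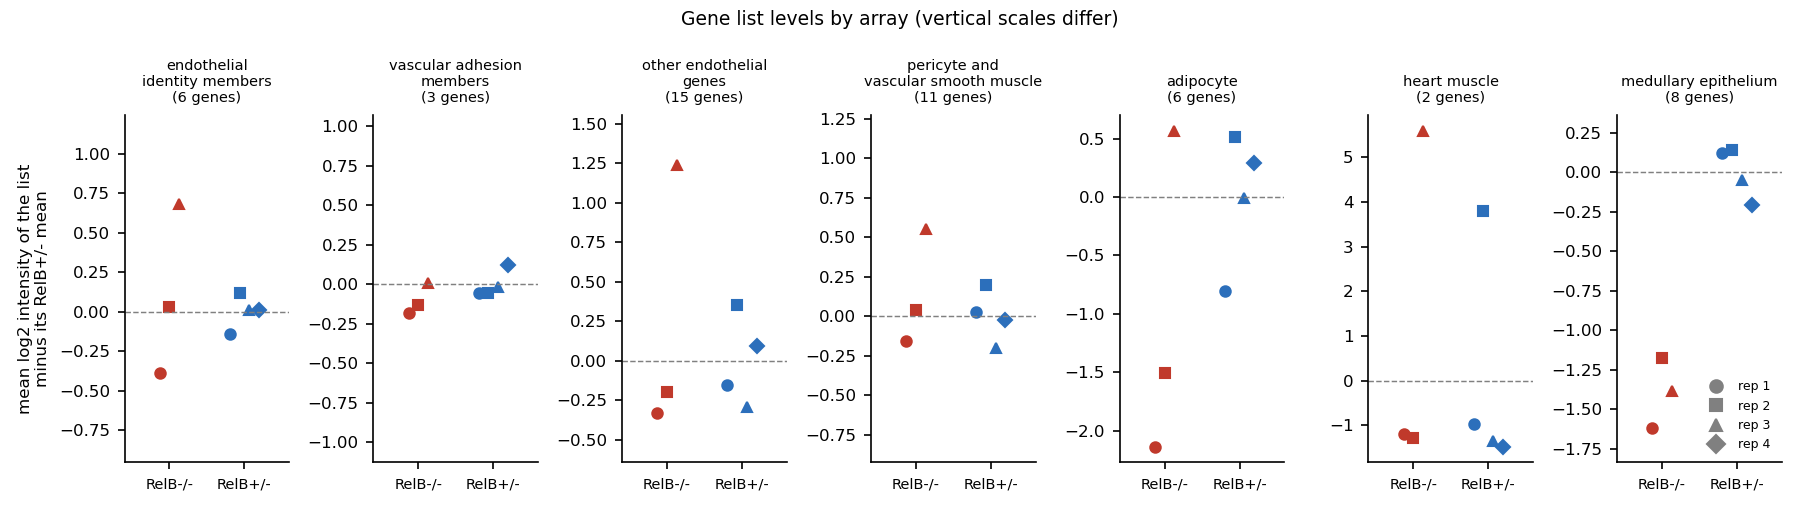
Mean log2 intensity of the kept genes of 7 lists minus the list's RelB+/- mean (vertical axes, with different scales) on each array, RelB-/- in red at the left and RelB+/- in blue at the right of each panel. RelB-/- 3 and RelB+/- 2, the 2 arrays with the most heart muscle genes detected, are also the highest of their genotype for the endothelial identity list. The same holds for the 15 further endothelial genes, while the medullary epithelial list separates the genotypes.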

How the data were processed

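Signals of 7 arrays were deposited by the authors as intensity values on a linear scale, not normalized between arrays, with a detection p-value for each probe, per the file headers. Per the submitters' processing notes the software was GenomeStudio, with no version stated there. A table of processed values deposited by the authors, which behave as log2 values, served as an alternative.

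Background was corrected by normexp with the detection p-values and an offset of 16 (limma 3.58.1, R 4.3.3), followed by quantile normalization and log2. Of 25695 probes, 23976 had 1 symbol and 0 had several. The 12465 probes detected (p under 0.05) by 3 or more arrays were tested with lmFit and eBayes (2-sided), and p-values were adjusted by Benjamini-Hochberg over all of them. Genes in lists were represented by their brightest kept probe. All 10 genes were named, with Relb and, per list, up to 4 called genes or the 2 with the smallest p. For a probe detected on no array of a genotype, the bound sets the other genotype's mean against the lowest detected signals. On simulated data for this comparison (12465 probes), 38% of probes changed by a log2 fold of 1 and 90% at a log2 fold of 2 were called. Of the unchanged probes, 5 were called. The simulated noise was normal, independent between probes and unrelated to intensity, with no detection limit and no deviating array. These shares therefore do not say how often changes of the 10 genes would be called. Figures were drawn with matplotlib 3.10.9.

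Alternatives covered background, offset, scaling, the processed values, filters, the variance model, array weights, 1 probe per gene, a replicate block, chip position and left-out arrays. The genes, lists and alternatives were chosen with earlier results of these data known. Nothing says that replicates share more than a number. Each p-value sets a difference against the spread between arrays, 1 per mouse, with variances drawn towards a value common to all kept probes. The number of arrays limits the precision.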

Additional observations from a re-analysis of the deposited data

Results flagged for a closer look

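The RelB+/- 2 array had a Kdr level of 4.48, well below the next lowest RelB+/- array at 5.02, with the remaining RelB+/- arrays between 5.02 and 5.07. It was flagged because its gap to the nearest array took up most of the group's whole range. The probe was not above background on that array. Chance flags about 1 in 20 such groups, and 10 kept probes were examined.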

How the results depend on the processing

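Across 19 alternatives the number of endothelial and adhesion probes called was 0 in each, and 169 of 185 recomputed differences kept their direction. The changes of filter, the variance model, 1 probe per gene and chip position left every estimate as it was. Direction could not change in those settings, so this count overstates how stable the differences are. The lowest adjusted p was 0.276, and 0 to 2 of the 10 probes had an unadjusted p under 0.05. The brighter Pecam1 probe turned to 0.022 without both arrays with heart muscle transcripts and to 0.055 without RelB-/- 3, where Cdh5 turned to -0.023 and -0.092 and Selp to -0.22 in both. Emcn turned to -0.24 without RelB-/- 3. Tek, near 0 with all arrays, turned to 0.0042 without background correction, 0.066 with an offset of 50, 0.019 with the authors' processed values and 0.0025 with the replicate block. Leaving out single arrays gave ranges of -0.17 to 0.055 for the brighter Pecam1 probe, -0.092 to 0.34 for Cdh5 and -0.72 to 0.56 for Tek. The ranges were -0.24 to 1.08 for Emcn, -0.22 to 0.54 for Selp and -0.37 to -0.014 for Vcam1, which was -0.093 without RelB+/- 4. They were 0.27 to 0.47 for the other Pecam1 probe, -0.56 to -0.29 for Kdr, 0.30 to 0.63 for Eng and -0.42 to -0.23 for Icam1. The other Pecam1 probe, Kdr, Eng, Icam1 and Vcam1 kept their direction in every alternative that tested them. Over all probes, 60 were lower and 8 higher. The counts were 23 and 2 with the authors' processed values, 12 and 3 for probes detected on all 7 arrays, 19 and 1 with the replicate block, and 18 and 1 without both arrays with heart muscle transcripts. Without a detection filter 5 were higher. Leaving out single arrays gave 27 to 61 lower and 3 to 7 higher, with the fewest lower without RelB+/- 1 (27), RelB-/- 1 (31) and RelB+/- 2 (38), and the fewest higher without RelB-/- 3 (3), RelB+/- 1 (3), RelB+/- 3 (3) and RelB+/- 2 (4). The cause was not tested. Deviations of same-numbered arrays from their group means correlated at -0.19 to 0.30 over 3 pairs, too few to say whether the numbers pair mice. Of the 3 RelB-/- arrays, 1 correlated best with its own number. Cdh5, Kdr, Tek and Selp lie near the detection limit, where background shrinks a fold.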
